A study of Homo sapiens with 8 samples.

Results

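The SNARE and VPS genes encode much of the machinery by which membrane vesicles find and fuse with their target compartments. They were taken here as every protein-coding gene of GENCODE release 44 whose symbol begins with VAMP, STX, VPS or SNAP followed by a digit, which gave 64 of 20015 protein-coding genes. The binding of PHF20 and PHF20L1 to their promoters was measured by chromatin immunoprecipitation and sequencing (ChIP-Seq) in U2OS, a human osteosarcoma cell line. Every sample came from U2OS cells overexpressing PHF20 or PHF20L1 with a 3xHA tag, a short peptide that the antibody recognises. For PHF20 there were 2 HA ChIP libraries and 1 input library (chromatin without antibody), all tagged N-terminally. For PHF20L1 there were 3 ChIP and 2 input libraries, of which 1 ChIP and 1 input were tagged N-terminally and 2 ChIP and 1 input C-terminally. No library measured either protein at its endogenous level, and every value below is for the tagged, ectopically expressed proteins.

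The deposited data were 1 final peak list per protein, 4147 peaks for PHF20 and 723 for PHF20L1, each peak given only by its start and end on hg38. A gene was called bound where a peak reached into its promoter, defined as 1000 bp before and 500 bp after the transcription start site (TSS) of any of its transcripts. Because the lists combine replicates and hold no height or read count, no spread between replicates and no library depth can be given, cell identity cannot be checked against markers, and a gene without a peak is one at which none was called. The 95% intervals are Wilson intervals and cover counting error over genes only.

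SNARE proteins sit on vesicles (the VAMPs) and on target membranes (the syntaxins, encoded by STX genes, and the SNAP25 family), and zip together into a helical bundle that pulls both membranes into contact. In neurons, members such as STX1A, SNAP25, VAMP1 and VAMP2 carry out the calcium-triggered release of transmitter, whereas most other members work in secretion, endosomes, Golgi or endoplasmic reticulum of all cells. VPS genes are named after yeast mutants that mis-sort vacuolar proteins, and encode tethers that hold vesicles before fusion, coats that recycle receptors, the ESCRT subunits that cut membrane buds, and lipid transfer proteins. PHF20 and PHF20L1 are homologous chromatin readers that occur in separate NSL complexes around the acetyltransferase KAT8, which act at promoters of genes that most cells use.

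PHF20 had a promoter peak at 34 of the 64 genes (53.1%, interval 41.1% to 64.8%), against 20.7% of all protein-coding genes. PHF20L1 had one at 9 of 64 (14.1%, 7.58% to 24.6%), against 3.83%. The 9 genes were STX16, STX18, VPS13B, VPS33A, VPS35L, VPS50, VPS51, VPS9D1 and STX16-NPEPL1, a readthrough transcript unit that starts within the promoter of STX16 and shares its peaks. At each of these 9 the PHF20L1 peak overlapped a PHF20 peak, an arrangement found at 3.71% of all protein-coding genes. Among the 34 genes with a PHF20 peak, the 9 with PHF20L1 can be read against 18.0% of all PHF20-bound genes. PHF20 was at 9 of 27 SNARE genes (33.3%, 18.6% to 52.2%) and at 24 of 35 VPS genes (68.6%, 52.0% to 81.4%), with intervals that met only at their ends. This contrast holds for the matched symbols, since 10 SNAREs with other symbols stood at 70.0% (39.7% to 89.2%). With each peak counted only for the closest gene, VPS genes stood at 54.3% and SNARE genes at 33.3%. PHF20L1 was at 2 of 27 SNARE genes (7.41%, 2.06% to 23.4%) and 6 of 35 VPS genes (17.1%, 8.10% to 32.7%), with intervals that overlapped widely. SNAP91, a clathrin adaptor of nerve terminals that is no SNARE, carries a matching symbol, was counted in neither group and had no peak.

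**Figure D1:**
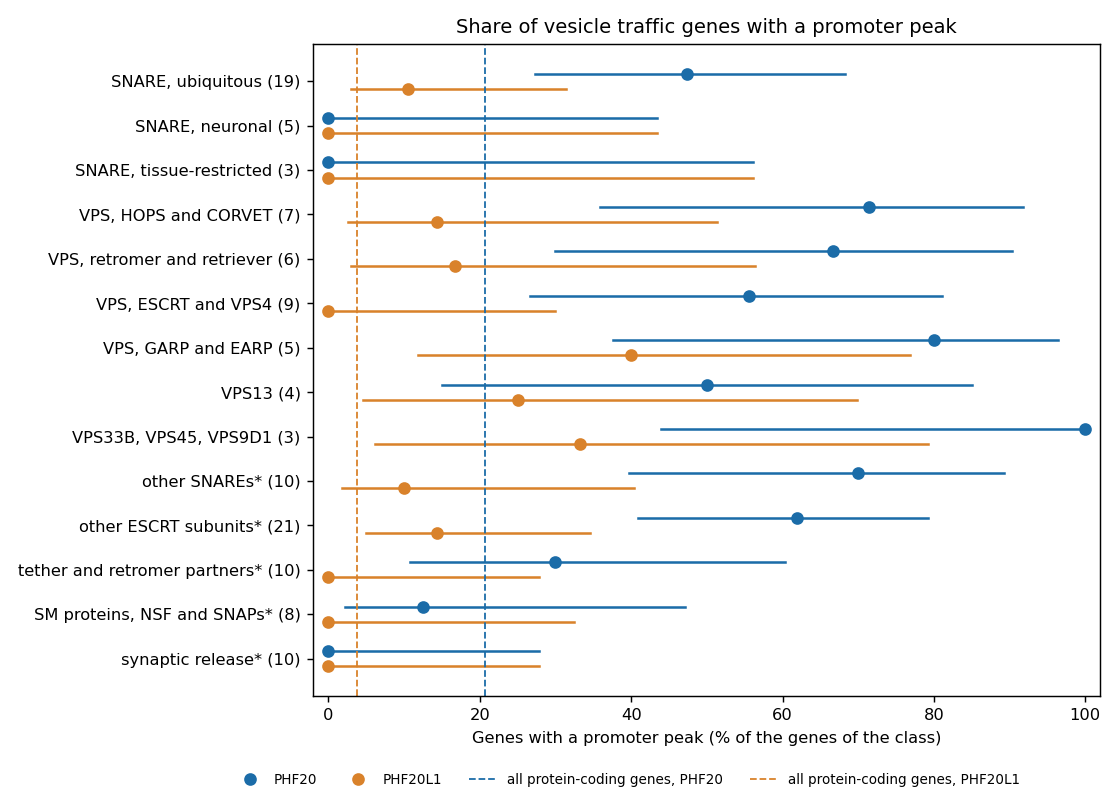
Points give the share of genes of each class with a promoter peak of PHF20 (blue) or PHF20L1 (orange), in percent, with the number of genes in brackets, and lines give Wilson 95% intervals for counting error. Classes marked with an asterisk are related genes outside the 64, dashed lines mark the shares of all protein-coding genes (20.7% and 3.83%), and classes of 1 gene are left out. The 5 neuronal SNARE genes lie at 0 for both proteins, while the ubiquitous SNAREs lie at 47.4% for PHF20.

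Promoter sequences of 10 of the genes, chosen as examples after their values were seen, were read from RefSeq on GRCh38.p14, in the gene's direction, from 250 bases before the RefSeq start to 30 bases from it onward, and position 0 is the start. Capitals mark any match to ACTTCCGG (a form read by ETS factors), CACGTGAC and the E-box CACGTG it contains (the former also the form read by TFEB, a regulator of lysosomal genes), GCGCATGC (NRF1) and AAGATGGCG (YY1), or to their reverse complements. A match is a description of the letters, not a site in use. The promoters of 4 genes with peaks of both proteins are VPS50 (chr7:93232116-93232395, plus strand), VPS51 (chr11:65095964-65096243, plus), VPS9D1 (chr16:89720869-89721148, minus) and STX16 (chr20:58651033-58651312, plus), which are shown because all 280 bases of each lay inside the PHF20 peak.
VPS50: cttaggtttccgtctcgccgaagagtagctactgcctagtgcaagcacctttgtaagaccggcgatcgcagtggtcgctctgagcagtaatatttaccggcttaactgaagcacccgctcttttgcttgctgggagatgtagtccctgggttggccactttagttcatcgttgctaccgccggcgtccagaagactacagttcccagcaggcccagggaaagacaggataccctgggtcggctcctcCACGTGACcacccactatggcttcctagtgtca
VPS51: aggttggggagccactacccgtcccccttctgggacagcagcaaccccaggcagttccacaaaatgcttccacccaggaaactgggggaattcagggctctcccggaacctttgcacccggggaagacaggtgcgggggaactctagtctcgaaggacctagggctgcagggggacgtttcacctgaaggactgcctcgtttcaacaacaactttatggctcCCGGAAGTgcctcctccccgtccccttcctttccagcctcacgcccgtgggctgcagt
VPS9D1: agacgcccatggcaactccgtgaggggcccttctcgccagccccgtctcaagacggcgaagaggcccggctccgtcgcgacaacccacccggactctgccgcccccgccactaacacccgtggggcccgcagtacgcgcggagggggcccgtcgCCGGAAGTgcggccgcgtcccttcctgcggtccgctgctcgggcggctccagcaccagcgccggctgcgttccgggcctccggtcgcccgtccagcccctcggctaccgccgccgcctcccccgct
STX16: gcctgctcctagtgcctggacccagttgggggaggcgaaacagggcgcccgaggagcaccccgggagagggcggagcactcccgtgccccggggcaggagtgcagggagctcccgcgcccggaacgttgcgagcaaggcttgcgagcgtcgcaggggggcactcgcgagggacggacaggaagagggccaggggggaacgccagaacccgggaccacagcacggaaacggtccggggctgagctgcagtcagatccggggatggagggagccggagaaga

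VPS50 had CACGTGAC beginning at position -3, across its start, while VPS51 and VPS9D1 had the reverse complement CCGGAAGT at -28 and -96, and STX16 had no match. Of the genes with PHF20 alone, VAMP3 (chr1:7771046-7771325, plus), VPS11 (chr11:119067568-119067847, plus) and VPS25 (chr17:42773199-42773478, plus) are shown because VAMP3 represents the SNAREs and the other promoters hold CACGTGAC or the reverse complement of ACTTCCGG.
VAMP3: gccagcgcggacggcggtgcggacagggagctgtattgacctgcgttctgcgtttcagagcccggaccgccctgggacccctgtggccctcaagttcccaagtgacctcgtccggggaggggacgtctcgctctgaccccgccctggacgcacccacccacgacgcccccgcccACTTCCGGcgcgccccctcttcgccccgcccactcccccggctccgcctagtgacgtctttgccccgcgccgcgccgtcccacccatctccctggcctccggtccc
VPS11: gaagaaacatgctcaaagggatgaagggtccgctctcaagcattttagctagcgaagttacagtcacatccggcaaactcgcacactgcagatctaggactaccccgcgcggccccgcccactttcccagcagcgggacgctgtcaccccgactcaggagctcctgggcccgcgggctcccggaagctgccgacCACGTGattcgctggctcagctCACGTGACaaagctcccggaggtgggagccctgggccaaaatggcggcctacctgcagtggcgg
VPS25: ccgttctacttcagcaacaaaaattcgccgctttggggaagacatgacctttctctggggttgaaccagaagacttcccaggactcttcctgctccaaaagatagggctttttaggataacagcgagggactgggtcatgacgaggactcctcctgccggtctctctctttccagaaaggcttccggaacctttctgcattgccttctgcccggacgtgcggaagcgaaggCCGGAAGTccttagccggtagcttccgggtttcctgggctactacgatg

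In VAMP3 the match began at position -76, outside the PHF20 peak, which reached only from -30 onward and took in 60 of the 280 bases. VPS11 had CACGTGAC at -34 and a further CACGTG at -56, and VPS25 had CCGGAAGT at -19. For comparison, STX6 (chr1:181022841-181023120, minus), STX1A (chr7:73719640-73719919, minus) and VAMP2 (chr17:8162919-8163198, minus) had no peak of either protein, and are shown because each holds one of the same letter strings.
STX6: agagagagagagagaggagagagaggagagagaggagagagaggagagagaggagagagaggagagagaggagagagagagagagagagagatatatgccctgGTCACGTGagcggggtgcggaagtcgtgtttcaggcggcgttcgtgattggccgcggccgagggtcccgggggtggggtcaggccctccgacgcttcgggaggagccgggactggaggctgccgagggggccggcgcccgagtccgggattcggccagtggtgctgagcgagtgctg
STX1A: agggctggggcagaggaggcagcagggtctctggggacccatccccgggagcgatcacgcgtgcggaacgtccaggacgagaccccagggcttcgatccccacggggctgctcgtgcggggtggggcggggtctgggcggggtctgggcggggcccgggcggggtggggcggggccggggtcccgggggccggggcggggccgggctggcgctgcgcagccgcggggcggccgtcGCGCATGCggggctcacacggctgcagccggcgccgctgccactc
VAMP2: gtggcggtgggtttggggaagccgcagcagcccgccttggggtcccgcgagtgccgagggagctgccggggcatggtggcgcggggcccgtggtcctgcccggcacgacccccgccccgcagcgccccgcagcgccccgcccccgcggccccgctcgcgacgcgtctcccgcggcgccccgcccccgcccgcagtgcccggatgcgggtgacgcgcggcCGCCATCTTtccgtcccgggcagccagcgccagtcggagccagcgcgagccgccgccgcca

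STX6, a syntaxin of the trans-Golgi network, had GTCACGTG at -147. The neuronal STX1A had GCGCATGC at -15, and the neuronal VAMP2 had CGCCATCTT at -31.

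Among the SNAREs that most cells use, 9 of 19 had a PHF20 peak (47.4%, 27.3% to 68.3%), against 20.7% of all protein-coding genes. They serve different steps of traffic. STX4 and SNAP23 act in fusion at the plasma membrane and VAMP3 on recycling endosomes. STX12 and VAMP4 act on endosomes and between endosomes and the trans-Golgi network, where STX16 also works, STX17 acts in autophagosome fusion, STX18 in return from the Golgi to the endoplasmic reticulum, and SNAP47 is a SNAP25 relative. The 10 without a peak were SNAP29, STX10, STX2, STX3, STX5, STX6, STX7, STX8, VAMP7 and VAMP8, so that partners in 1 fusion complex were split. STX17, for instance, had a peak whereas SNAP29 and VAMP8, with which it joins autophagosomes to lysosomes, had none. STX7, STX8 and VAMP8 of late endosome fusion all lacked one. With 9 of 19 genes bound, split partners are no finding about the complexes. PHF20L1 was at STX16 and STX18, 2 of 19 (10.5%, 2.94% to 31.4%), an interval that includes the 3.83% of all protein-coding genes.

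None of the 5 neuronal SNARE genes had a peak of either protein, against 20.7% of all protein-coding genes for PHF20 and 3.83% for PHF20L1. A count of 0 of 5 allows a share of up to 60.0%, with an interval reaching 43.4%. This interval takes in both general shares and overlaps that of the ubiquitous genes, so the number of genes limits the contrast. SNAP25 (ENSG00000132639.15, chr20:10172395-10308258, plus) lay farthest from a PHF20 peak, its nearest TSS being 137100 bp from a peak at the ANKEF1 promoter. For VAMP2 (ENSG00000220205.10, chr17:8159149-8163546, minus) the distance was 9662 bp, to a peak at no protein-coding promoter. VAMP1 (ENSG00000139190.17, chr12:6462237-6470677, minus) was 14210 bp from the TAPBPL peak. STX1A (ENSG00000106089.12, chr7:73699206-73719672, minus) was 16906 bp from the peak at BUD23 and DNAJC30. The 3 SNAREs of restricted tissues, VAMP5 (muscle), STX11 (immune cells) and STX19 (epithelia), had no peak either, where a count of 0 of 3 sets no useful limit.

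Most of the tether subunits with a VPS symbol had a PHF20 peak, and partners with other symbols are counted below. The shares over all protein-coding genes were 20.7% for PHF20 and 3.83% for PHF20L1. In HOPS and CORVET, which tether late and early endosomes, 5 of 7 genes had PHF20 (71.4%, 35.9% to 91.8%). VPS11, VPS16, VPS18 and VPS33A, the 4 subunits common to both complexes, all had a peak, as did VPS39 of HOPS, and VPS41 of HOPS and VPS8 of CORVET did not. In GARP and EARP, which receive endosome-derived vesicles at the trans-Golgi network and on recycling endosomes, 4 of 5 had PHF20 (80.0%, 37.6% to 96.4%). These were VPS50, VPS51, VPS53 and VPS54, and VPS52 was the exception. PHF20L1 was at VPS33A in the former class and at VPS50 and VPS51 in the latter.

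The counts that follow stand beside 20.7% of all protein-coding genes for PHF20 and 3.83% for PHF20L1. Of the recycling coats retromer and retriever, 4 of 6 genes had PHF20 (66.7%, 30% to 90.3%), namely VPS26A, VPS29, VPS35 and VPS35L, with PHF20L1 at VPS35L. The VPS26 paralogs differed, since VPS26A had a peak and VPS26B and VPS26C had none. Of the ESCRT genes and the ATPases that take ESCRT apart, 5 of 9 had PHF20 (55.6%, 26.7% to 81.1%). For PHF20L1 it was 0 of 9, which allows up to 33.3% and so includes the general share of 3.83%. Both ATPase genes, VPS4A and VPS4B, and both ESCRT-II genes with a VPS symbol, VPS25 and VPS36, were bound. Among the ESCRT-I genes with a VPS symbol only VPS37A was, and VPS28, VPS37B, VPS37C and VPS37D were not. Subunits with other symbols are counted below, and of these TSG101 and SNF8 had PHF20. VPS13B and VPS13D, of 4 bridge-like lipid transfer genes, had PHF20, and VPS13A and VPS13C had none. The interval of this share, 15.0% to 85.0%, includes 20.7%. VPS33B and VPS45, which bind SNAREs as Sec1/Munc18 proteins, and VPS9D1 all had PHF20. VPS72, which despite its symbol encodes a histone-binding chromatin remodelling subunit, also had a peak.

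Genes of the same pathways that carry other symbols were counted in the same way. Over all protein-coding genes the shares were 20.7% for PHF20 and 3.83% for PHF20L1. Of 10 further SNAREs, which work mainly between endoplasmic reticulum, Golgi and endosomes, 7 had PHF20 (70.0%, 39.7% to 89.2%): BET1, BNIP1, GOSR1, GOSR2, SEC22B, USE1 and VTI1A, the last also with PHF20L1. Of 21 further ESCRT genes, 13 had PHF20 (61.9%, 40.9% to 79.2%) and 3 had PHF20L1, namely CHMP1B, IST1 and SNF8. The partners of tethers and retromer gave 3 of 10 (SNX1, SNX2 and TGFBRAP1). A list of Sec1/Munc18 proteins and the factors that take SNARE bundles apart after fusion gave 1 of 8, SCFD2 (12.5%, 2.24% to 47.1%). NSF, NAPA and NAPG, which serve every SNARE, had no peak. This list left out VPS33B and VPS45, Sec1/Munc18 genes counted above, which both had PHF20. Of 10 genes of regulated synaptic release, among them SYT1 and SYP, 0 had a peak of either protein, which allows up to 30%, with an interval reaching 27.8%. For PHF20 the intervals of the partners, the Sec1/Munc18 list and the synaptic genes all include the general share of 20.7%.

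The 34 PHF20-bound genes stood on 34 distinct PHF20 peaks, because STX16 and STX16-NPEPL1 share 1 and VPS35L has 2. The widest promoter peak of a gene was 286 to 1558 bp wide with a median of 747 bp (n = 34), against 682 bp over all PHF20-bound genes (n = 4148). SNARE genes had a median of 716 bp (n = 9) and VPS genes 747 bp (n = 24). The 5 widest were at VPS33A (1558 bp, percentile 99.3 of all PHF20 peaks), VPS11 (1147 bp, 90.8), SNAP47 (1092 bp, 88.0), VPS54 (1086 bp, 87.7) and STX16 (1084 bp, 87.5). The narrowest were at STX12 (286 bp, 13.5), VPS29 (293 bp, 14.5) and STX4 (357 bp, 22.5). VAMP3 had a peak of 402 bp (chr1:7771266-7771667, percentile 26.9) whose centre fell in an intron. Width is the extent of the called region and stands in for no height.

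**Figure D2:**
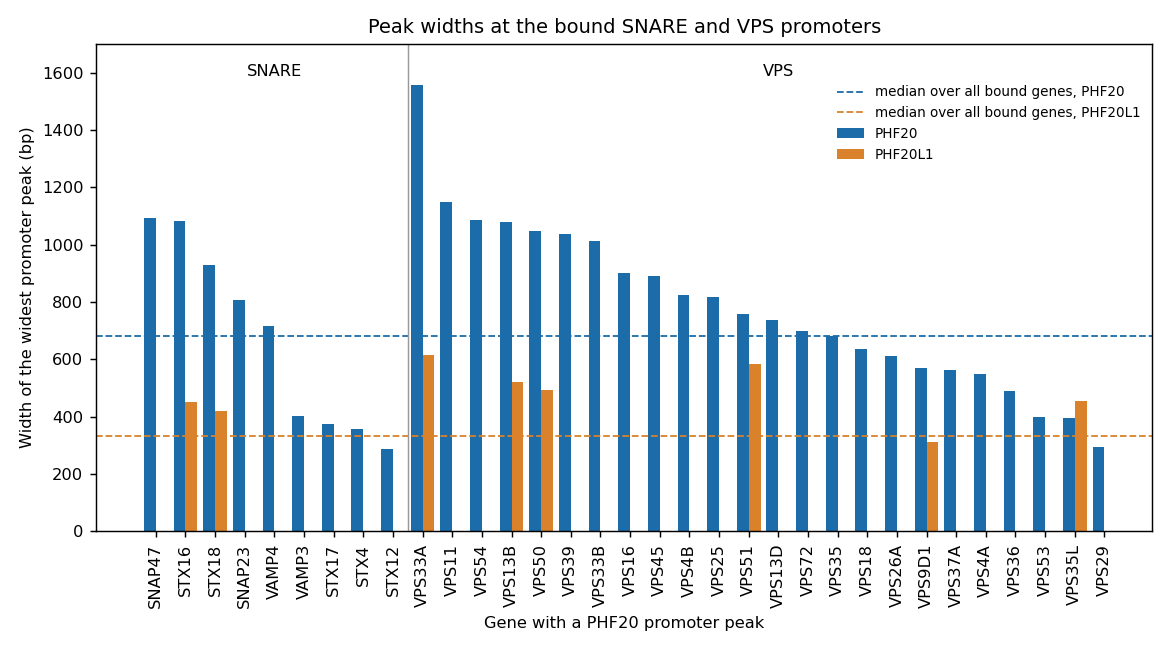
Bars give the width in bp of the widest promoter peak of each SNARE (left of the line) and VPS gene (right) with a PHF20 peak, for PHF20 (blue) and, where present, PHF20L1 (orange), and dashed lines the medians over all bound genes (682 and 331.5 bp). PHF20 peaks run from 1558 bp at VPS33A to 286 bp at STX12, and only at VPS35L is the PHF20L1 peak the wider one.

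PHF20L1 peaks at the members were 310 to 616 bp wide with a median of 454 bp (n = 9), against 331.5 bp over all PHF20L1-bound genes (n = 766). They formed 8 distinct peaks, and 6 of these lay wholly inside the PHF20 peak. VPS33A (ENSG00000139719.11, chr12:122229564-122266494, minus) had the widest pair, with PHF20 at chr12:122265545-122267102 and PHF20L1 over 616 bp at chr12:122266256-122266871. These centres were also the farthest apart, by 240.0 bp, with the PHF20 centre in an exon and the PHF20L1 centre just outside the gene. VPS50 (ENSG00000004766.17, chr7:93232340-93361123, plus) had PHF20 over 1049 bp at chr7:93231873-93232921 and PHF20L1 over 494 bp at chr7:93232139-93232632. There the centres lay 11.5 bp apart and both in an exon. STX16 (ENSG00000124222.23, chr20:58651272-58679526, plus) had PHF20 at chr20:58650612-58651695 and PHF20L1 over 450 bp at chr20:58650932-58651381, with centres only 3 bp apart, both upstream of the gene.

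STX18 (ENSG00000168818.10, chr4:4415742-4542346, minus) had PHF20 over 929 bp at chr4:4541651-4542579 and PHF20L1 over 418 bp at chr4:4541895-4542312, both centred in an intron. VPS9D1 (ENSG00000075399.14, chr16:89707134-89720898, minus) had PHF20 over 569 bp at chr16:89720736-89721304 and PHF20L1 over 310 bp at chr16:89720846-89721155, both centred outside the gene. VPS13B, on chromosome 8, had 1079 bp of PHF20 and 521 bp of PHF20L1 with centres 20 bp apart. In these 3 genes the PHF20L1 peak was again nested in the wider PHF20 peak. VPS51 and VPS35L departed from this form. VPS51 (ENSG00000149823.10, chr11:65089324-65111862, plus) had PHF20 over 758 bp at chr11:65095730-65096487 and PHF20L1 over 584 bp at chr11:65095910-65096493, which ran past the downstream end of the PHF20 peak. VPS35L (ENSG00000103544.17, chr16:19555240-19706793, plus) had PHF20 peaks of 395 bp at chr16:19555704-19556098 and 216 bp at chr16:19556204-19556419, and PHF20L1 covered 454 bp at chr16:19555659-19556112. The PHF20L1 peak thus covered the whole of the wider PHF20 peak, and all of these were centred in an intron. Across the 8 peak pairs the PHF20 peak was a median of 2.09 times as wide as the PHF20L1 peak and the centres lay a median of 17.5 bp apart. The PHF20 peaks had a median width of 989 bp at the members with both proteins (n = 8) and 699 bp at those with PHF20 alone (n = 25), and over all genes the same medians were 989 bp (n = 747) and 614 bp (n = 3401).

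**Figure D3:**
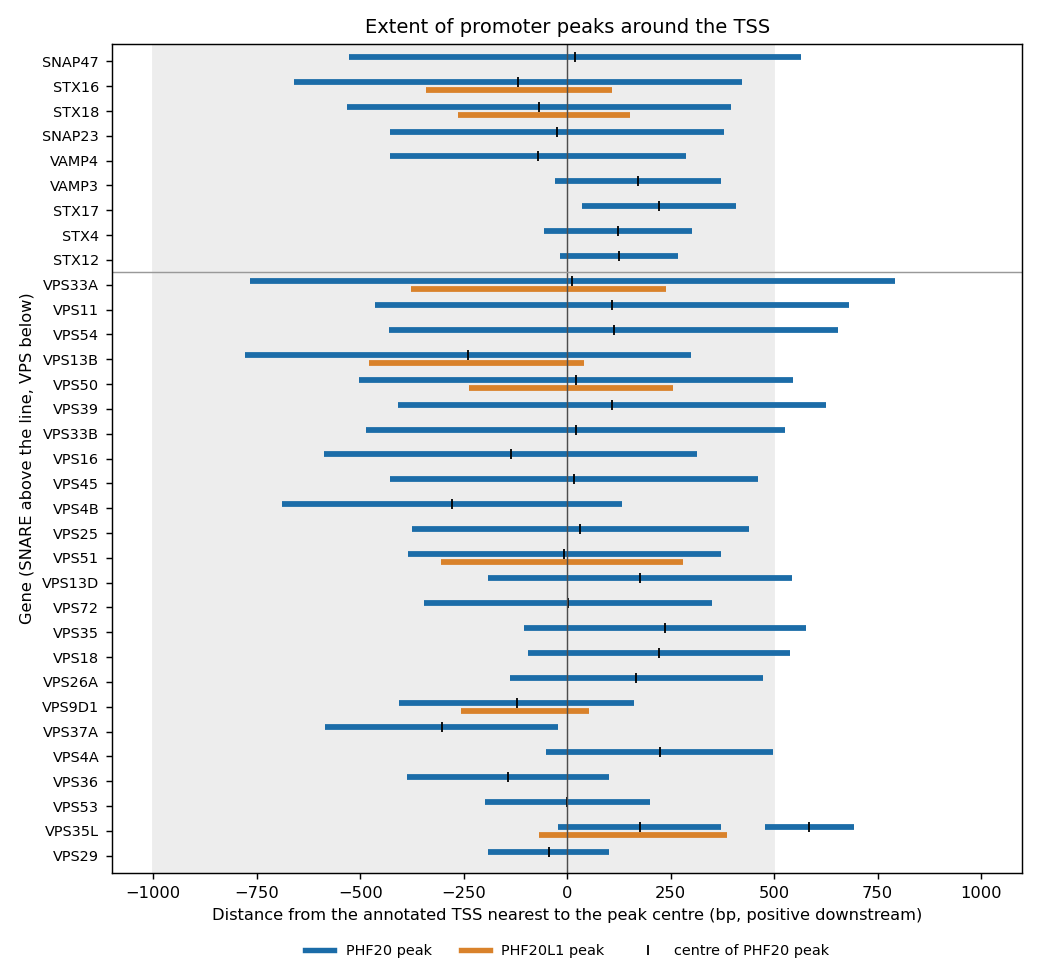
Horizontal bars show the extent in bp of each promoter peak of PHF20 (blue) and PHF20L1 (orange), positive in the direction of transcription. Each bar is placed from the annotated TSS nearest to the centre of that same peak. At VPS51 and VPS33A this TSS differs between the proteins, so their bars cannot be compared in position. Ticks mark PHF20 centres, and grey shading runs from 1000 bp upstream to 500 bp downstream. Most peaks straddle the TSS, and the 4 narrowest SNARE peaks lie mostly downstream. As drawn, the PHF20L1 bars lie inside the PHF20 bars except at VPS35L. In genome positions the VPS51 peak of PHF20L1 also runs past that of PHF20.

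The PHF20 peak centres lay a median of 120.2 bp from the nearest TSS (n = 34), against 109.5 bp over all PHF20-bound genes. They lay downstream of it in 20 of 34 genes (58.8%), against 47.9% of all bound genes, and the PHF20L1 centres did so in 2 of 9 (41.5% of all PHF20L1-bound genes). Of the 34 genes, 27 had a PHF20 peak that spanned the canonical TSS. SNAP23 was the most distant, with a peak of 806 bp at an alternative upstream TSS, centred at -4359.5 bp from the canonical one. The centre fell in an exon in 16 genes, in an intron in 9 and outside the gene in 9.

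Several peaks could be counted for more than 1 gene. The PHF20 peak of 11 of the 34 genes also touched the promoter of another protein-coding gene (32.4%, against 38.2% of all PHF20-bound genes), and in 7 of these the neighbour was on the opposite strand. These pairs, with the distance between the closest TSSs, were SNAP47 and JMJD4 (17 bp), VPS16 and PCED1A (32 bp), VPS37A and CNOT7 (53 bp), VPS9D1 and ZNF276 (87 bp), VPS29 and RAD9B (89 bp), SNAP23 and ZNF106 (92 bp), and VPS35 and ORC6 (125 bp). When each peak was counted only for the protein-coding gene with the TSS closest to its centre, 28 of the 64 genes kept a PHF20 peak, against 16.9% of all genes. All 9 SNARE genes kept theirs, and VPS genes fell to 19 of 35 (54.3%), with VPS37A, VPS16, VPS33B, VPS9D1 and VPS29 assigned to a neighbour.

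Genes without a promoter peak were in most cases far from any. Their nearest TSS was 3513 to 1023715 bp from a PHF20 peak with a median of 66634 bp (n = 30), VAMP5 being the closest and STX8 the farthest. VAMP5 (ENSG00000168899.5, chr2:85584431-85593406, plus) was the only 1 of 30 within 5000 bp, and the peak in question, chr2:85595110-85595470, is 361 bp wide and stands at the promoter of RNF181. In 0 of the 30 genes did a PHF20 peak lie elsewhere in the gene.

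Promoter composition was compared because CpG-rich promoters carry more peaks in general. A promoter was called CpG-rich where, within 500 bp on either side of the canonical TSS, the ratio of observed to expected CpG was at least 0.6 and GC content at least 50%. This held for 56 of the 64 genes (87.5%) against 64.8% of all protein-coding genes. Among CpG-rich promoters PHF20 was at 29 of 56 members (51.8%, 39.0% to 64.3%) against 29.0% of all such genes, and PHF20L1 at 5 of 56 (8.93%, 3.87% to 19.3%) against 5.24%. Of the SNARE and VPS genes, 24 of 27 and 31 of 35 were CpG-rich, and among these PHF20 was at 8 of 24 (33.3%, 18.0% to 53.3%) and 21 of 31 (67.7%, 50.1% to 81.4%). With limits of 0.75 and 55% instead, the difference was smaller, at 5 of 12 SNARE genes (41.7%) and 10 of 18 VPS genes (55.6%). Of the CpG-rich ubiquitous SNAREs, 8 of 17 had PHF20 (47.1%, 26.2% to 69.0%), an interval that includes the 29.0% of all CpG-rich genes. All 5 neuronal SNARE promoters were CpG-rich and none had a peak. The CpG ratio was 0.694 at SNAP25, 0.732 at VAMP1, 0.755 at STX1A and 0.798 at VAMP2, within the range of the ubiquitous SNAREs, 0.288 to 0.923 with a median of 0.774 (n = 19). Of the 8 members without a CpG-rich promoter, STX16, STX16-NPEPL1, VPS50 and VPS51 had both proteins and VPS25 had PHF20, leaving STX19, VAMP8 and VPS41 with no peak. These 5 of 8 for PHF20 (62.5%, 30.6% to 86.3%) and 4 of 8 for PHF20L1 (50%, 21.5% to 78.5%) stand beside 5.56% and 1.22% of all protein-coding genes without a CpG-rich promoter, and 2 of these members, STX16 and its readthrough, share their peaks. The CpG ratio of VPS50 was 0.597, of STX16 0.588 and of VPS51 0.585, just under the limit, and that of VAMP8 was 0.288.

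**Figure D4:**
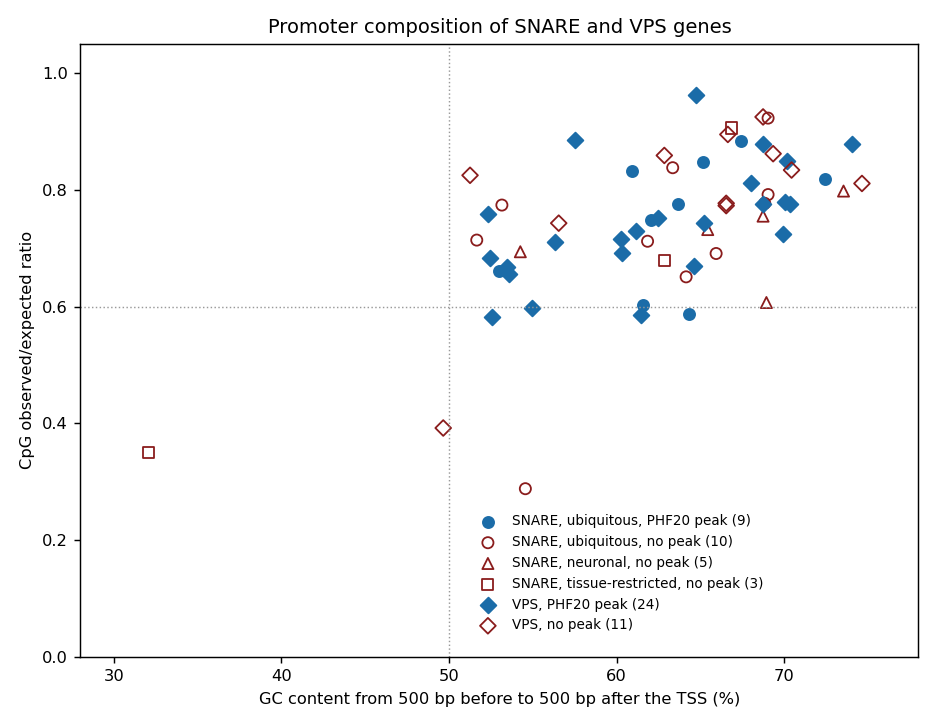
Each symbol is 1 SNARE or VPS gene, placed by GC content in percent (horizontal) and the ratio of observed to expected CpG (vertical) within 500 bp of the canonical TSS, filled blue with a PHF20 promoter peak and open red without, and dotted lines mark the limits for a CpG-rich promoter. The open triangles of the 5 neuronal SNAREs lie above the CpG limit of 0.6 and in the range of the filled symbols.

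The number of annotated TSSs sets how many windows a gene offers to a peak. Of members with 1 to 3 TSSs, 4 of 11 had PHF20 (36.4%, against 11.0% of all such genes), of those with 4 to 9 it was 13 of 24 (54.2%, against 23.3%), and of those with 10 or more 17 of 29 (58.6%, against 30.1%). Bound SNARE genes had a median of 12 TSSs (n = 9) and unbound ones 4.5 (n = 18), a difference that moves with binding and whose part in it was not tested. For VPS genes the medians were 9 (n = 24) and 10 (n = 11).

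The letter strings shown in the promoters were also counted over 500 bp around the PHF20 peak centre, in 33 bound members (STX16 and its readthrough counted once) and in all 3562 PHF20 promoter peaks. CACGTGAC was in 6 of 33 (18.2%), at STX4, VPS11, VPS16, VPS26A, VPS33A and VPS50, against 6.04% of all promoter peaks. CACGTG, which it contains, was in 7 (21.2%, against 14.6%), the addition being VPS36. ACTTCCGG was in 7 (21.2%, against 16.7%), at VAMP3, VPS13B, VPS25, VPS33B, VPS51, VPS53 and VPS9D1. AAGATGGCG was in 1 (3.03%, against 6.43%), at VPS33A, and GCGCATGC in 0 (against 4.35%). None of these 33 peaks held both CACGTGAC and ACTTCCGG. The share of all promoter peaks with both was not counted, and with 6 and 7 of 33 this absence cannot be read as exclusion.

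In the 300-base RefSeq promoters, found for 50 of the 63 members with distinct promoters and for 15350 genes in all, CACGTGAC was in 8 (16.0%) against 3.58% of all genes. Among the members it was in 3 of 24 bound promoters (12.5%), VPS11, VPS16 and VPS50, and in 5 of 26 unbound ones (19.2%), SNAP29, STX6, VPS26C, VPS37B and VPS8, against 6.46% of bound and 2.77% of unbound genes overall. ACTTCCGG was in 6 (12.0%, against 6.42%), of which VAMP3, VPS25, VPS51 and VPS9D1 were bound and VPS26C and VPS52 were not. GCGCATGC was in 6 (12.0%, against 4.38%), with SNAP47 and STX4 bound and STX1A, STX2, STX7 and VPS26B unbound. AAGATGGCG was in VAMP2 alone (2.0%, against 2.98%). With counts of 1 to 8 genes, no order between bound and unbound members can be read from these shares.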

How the data were processed

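HA ChIP-Seq was done in U2OS cells overexpressing 3xHA-tagged PHF20 or PHF20L1. Reads had been aligned to hg38 by the authors using Bowtie 1.1.2, who kept uniquely mapped reads without duplicates, called peaks with MACS2 2.2.7.1 against input at an extension size of 200 bp, removed blacklisted regions and 1 PHF20 replicate, and combined replicates into a final list per protein by overlap of a strict with a lenient call. The deposited files give peak start and end positions and no other value. Depth per library was not recoverable from them.

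Peaks were compared with GENCODE release 44 at an overlap of at least 1 bp, after 18 gene records on Y that copy X genes were left out. Promoter sequences came from RefSeq (GRCh38.p14). Python 3.11.15, numpy 2.4.6, scipy 1.17.1, pysam 0.24.0 and matplotlib 3.10.9 were used. Overlap and letter searches were tested on simulated data (100 of 100 planted overlaps and 200 of 200 planted strings found, 0 false). The members and lists were chosen with earlier results of these data known, so no test was run. Every member may be named by its state. Full values are given for genes with both proteins, neuronal SNAREs, VAMP3, the 5 widest and 3 narrowest PHF20 peaks, and unbound genes with a peak within 5000 bp. Values of some genes within the counted classes are not reported here. Promoters to print were chosen after their values were seen.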

Additional observations from a re-analysis of the deposited data

How the results depend on the processing

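Of 109 alternative values, 104 stayed within 1.5 times the reported value and 5 moved. The 104 include the neuronal SNARE values, which could not move, and values of nested groups that repeat each other. The tally is therefore no measure of stability. When peaks narrower than the list median were dropped, PHF20 was at 5 of 27 SNARE genes (18.5%), all 5 of them among the 19 ubiquitous ones (26.3%), against 12.1% of all protein-coding genes, while VPS genes stood at 17 of 35 (48.6%) and all members at 23 of 64 (35.9%). Peaks of both proteins that each covered at least 50% of the other were left at 3 members (4.69%), against 0.859% of all protein-coding genes. CpG-rich promoters at the stricter limits of 0.75 and 55% numbered 31 of 64, against 42.0% of all genes, and PHF20 was then at 15 of 31 (48.4%, against 29.4%). By group it was at 5 of 12 SNARE genes (41.7%) and 10 of 18 VPS genes (55.6%), a smaller difference than at the looser limits. GCGCATGC was found in 2 of 33 whole peaks (6.06%), above the 4.52% of all PHF20 promoter peaks, whereas within 500 bp around the centre the members, at 0, lay below the general share. With only the outermost TSS, PHF20 was at 29 members against 17.8% of all genes. The neuronal SNAREs were at 0 for both proteins in every alternative, which no setting could have changed. Their closest peaks, both at VAMP2, lay 9662 bp (PHF20) and 9521 bp (PHF20L1) from a TSS. The widest window run reached 5000 bp. The settings with the canonical TSS and with the closest gene were chosen after seeing the data. No paired analysis was possible because each peak list combines the replicates, and for the same reason no replicate could be left out.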
